A study of Mus musculus with 58 samples.

Results

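The canonical TGF-β branch was followed through 10 genes, namely the ligand gene Tgfb1, the receptor genes Tgfbr1, Tgfbr2 and Tgfbr3, the signal transducers Smad2, Smad3 and Smad4, the inhibitory Smad7, and the early target genes Klf10 and Klf11. They were listed by symbol out of the 55376 gene symbols of the RNA count tables, and all 10 were found there. They were chosen by earlier RNA results of these same libraries, above all lower Klf10 and Klf11 read counts under caloric restriction (CR). The rule that lists them names the RNA counts of the diet groups and of the knockdowns and the histone signal of OCR. All RNA and histone values of these 10 genes are therefore a description without a test. Tests are given for chromatin accessibility and for other genes of the pathway.

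TGF-β is secreted in a latent complex, and once released it joins the type II receptor Tgfbr2 to the type I receptor Tgfbr1, whose kinase phosphorylates Smad2 and Smad3. These bind Smad4 and enter the nucleus, where they regulate genes together with other transcription factors, and they induce Smad7, which blocks the receptor again. In bone marrow the pathway is known for holding hematopoietic stem cells (HSCs) in quiescence.

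HSCs were sorted from bone marrow of wild-type male C57BL/6 mice as lineage-negative Sca-1+ c-Kit+ (LSK) cells that lacked CD34 and Flk2 and carried CD150. Old mice were 24 to 26 months of age and were fed ad libitum for life (OAL, n = 4), kept on lifelong 40% CR begun at 3 to 4 months of age (OCR, n = 4), or returned to free feeding for 4 weeks after lifelong CR (OCRRF, n = 2). Young mice entered at 3 to 4 months of age and were fed ad libitum (YAL, n = 4), restricted for 4 weeks with 20% in the first week and 40% afterwards (YCR, n = 4), or refed for 4 weeks after that (YCRRF, n = 4). In a transplant experiment, HSCs of aged mice were infected with lentiviral short hairpin RNAs, transplanted together with myeloid progenitors into lethally irradiated young female recipients, and sorted again later as donor LSK cells without CD48 and with CD150. The hairpin targeted Kdr and was marked by GFP (GFP_Kdr, n = 4), or a Kdr hairpin marked by GFP was joined by 1 of 2 Bmpr1a hairpins marked by mCherry (Double_KdrBmpr, n = 4, with 2 libraries for each Bmpr1a hairpin). Their controls carried scrambled hairpins with GFP (GFP_Scramble, n = 2) or with both markers (Double_Scramble, n = 2). Besides RNA-seq, the values used were ATAC-seq of OCR (n = 4) and OCRRF (n = 2), ChIP-seq of H3K4me3 and H3K27me3 in OCR (n = 2 each), and ChIP-seq peaks of the transcription factor PU.1 in OAL, OCR and OCRRF (n = 2 each). ATAC-seq and histone marks of OAL were not analysed here. The paper gives n per group of mice and calls the replicates of histone ChIP-seq biological, while the labels do not say whether each library came from separate animals, so a p here measures only the spread between these samples.

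Total counts ran from 11102898 reads in YCRRF replicate 4 to 44780217 in 1 GFP_Kdr library, and ATAC-seq libraries held 15721335 to 19558148 reads in peaks. Expression is given as CPM, the usual unit of read counts relative to library size, scaled by trimmed mean of M values (TMM) within the 22 diet libraries and, separately, within the 12 transplant libraries. YCRRF replicate 3 stood apart from its group, with a median absolute log2 difference of 0.463 from the median of its 3 partners over 12327 genes, against at most 0.252 in any other RNA library. In bulk RNA of sorted cells, fewer cells of a type and less RNA per cell cannot be told apart.

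Marker lists of other cell types, of genes that a sort excluded and of cycling genes were used to check the sorted cells. The 3 markers that a sort excluded (Cd34 and Flt3 in the diet experiment, Cd48 in the transplant experiment, led by Cd34, with Cd48 at 0 in 1 library) summed to 118 to 254 CPM in diet libraries and to 399 to 925 CPM after transplantation, where CD34 was not part of the sort. Summed mature myeloid markers (8 genes, mostly led by Lyz2) ran from 395 to 1611 CPM in diet libraries and from 664 to 3166 CPM in transplant libraries. The other lists had summed group means of 210 to 459 CPM for 6 megakaryocyte and platelet genes, 29.9 to 145 CPM for 6 erythroid genes, 33.0 to 221 CPM for 6 B lymphoid genes, 30.1 to 165 CPM for 6 T and NK cell genes, and 18.0 to 51.3 CPM for 6 genes of stroma and endothelium, a list led by Emcn in every library.

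The summed level of 5 cycling genes (Mki67, Top2a, Cdk1, Ccnb1 and Ccna2) was 134 ± 9.11 CPM (SD, n = 4) in OAL, 424 ± 72.3 CPM (SD, n = 4) in OCR and 134 ± 1.49 CPM (SD, n = 2) in OCRRF. In young cells it was 195 ± 16.1 CPM in YAL, 299.6 ± 30.9 CPM in YCR and 142 ± 54.5 CPM in YCRRF (SD, n = 4 each). By the edgeR test described below, 5 of 5 of these genes passed in OCR against OAL, all higher, and 5 of 5 passed in OCRRF against OCR, all lower. Only 1 of 5 passed in YCR against YAL, higher, and 0 of 5 in YCRRF against YCR. In an interaction of age and diet 2 of 5 passed, with the log2 fold change under CR higher in old cells. In OCR against OAL, 3 of 6 erythroid markers also passed, all lower, with 1 marker each of the megakaryocyte, B lymphoid, stroma and T and NK lists lower and 1 each of the mature myeloid and T and NK lists higher. In OCRRF against OCR, 3 of 6 erythroid and 2 of 6 B lymphoid markers were higher and 3 of 6 megakaryocyte and platelet markers lower, with 1 stroma marker higher and 1 T and NK marker in each direction. In OAL against YAL, 3 of 3 markers that a sort excluded and 3 of 5 cycling genes were lower, as were 3 of 6 B lymphoid markers, 1 mature myeloid and 1 erythroid marker, while 2 T and NK markers and 1 each of the B lymphoid, megakaryocyte and stroma lists were higher. The erythroid list as a whole had a median log2 fold change of 1.34 there, with sums of 137 ± 77.7 CPM in OAL and 44.0 ± 36.1 CPM in YAL (SD, n = 4 each). A set of 1971 olfactory and vomeronasal receptor genes, which HSCs are not known to use, summed to 553 to 788 CPM among OAL libraries, 587 to 1313 CPM among those of OCR, 1213 to 1553 CPM among those of OCRRF, 69.2 to 499 CPM in young libraries and 23.0 to 44.1 CPM in transplant libraries. These levels differed between groups of diet, age and experiment, and their part in the values below was not tested.

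Per kilobase of annotated exon, Klf10 was the most abundant of the 10 genes, with a mean of 56.6 CPM per kb over the diet libraries. Smad4 followed with 39.0, Tgfbr3 with 26.4, Tgfb1 with 23.4 and Smad3 with 21.5 CPM per kb. Levels of 11.0 for Tgfbr2, 9.14 for Tgfbr1, 8.91 for Klf11, 8.50 for Smad2 and 5.46 CPM per kb for Smad7 closed the series. Every one of the 10 transcripts had reads in all 34 RNA libraries, with 5.11 CPM of Smad7 in 1 double knockdown library as the lowest value. In the transplant libraries Klf10 again led with 71.3 CPM per kb, and Smad7 was lowest with 1.66 CPM per kb.

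**Figure D1:**
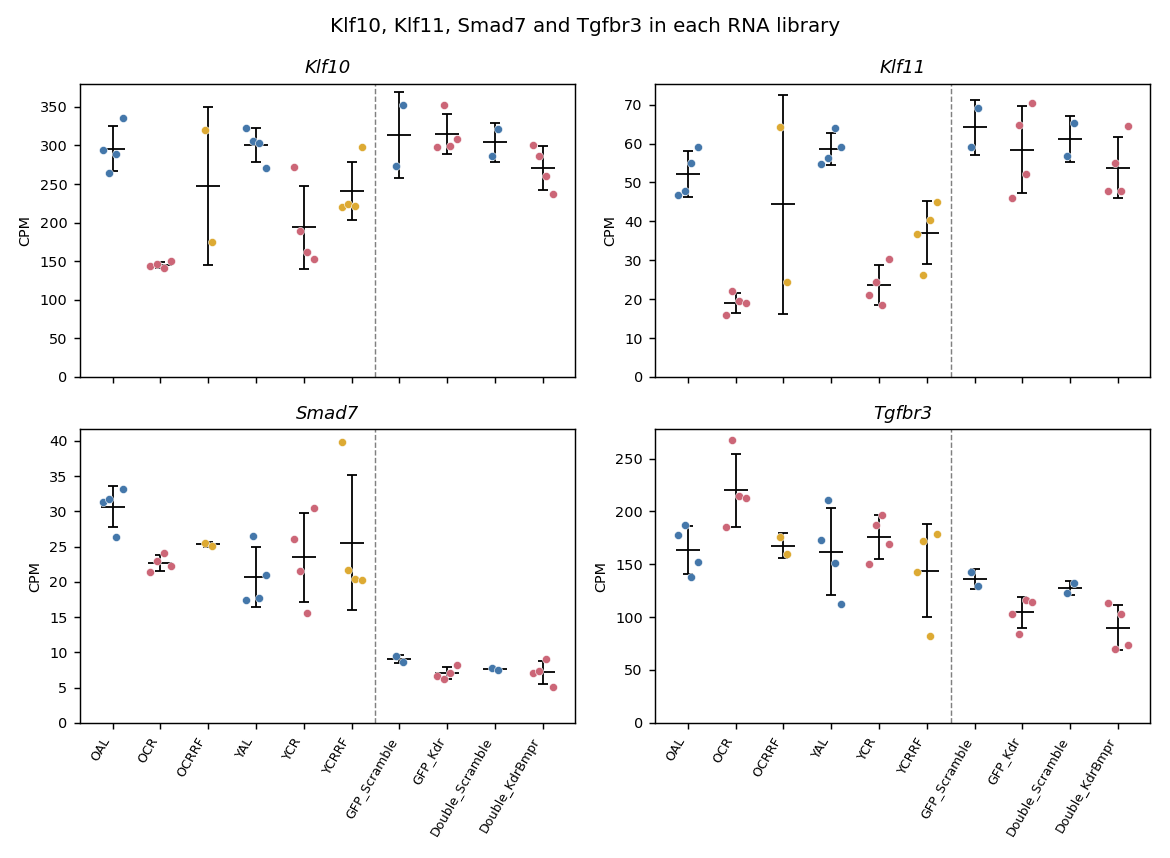
CPM of Klf10, Klf11, Smad7 and Tgfbr3 in each RNA library (points) with the group mean (bar) and SD (error bar). The dashed line separates diet groups from transplant groups, which were scaled separately; the 4 OCR libraries lie at 141 to 150.2 CPM for Klf10, below all 4 OAL libraries at 264 to 335 CPM.

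Tgfb1 encodes the ligand. Its levels were 114, 126, 130 and 125 CPM in OAL, 145, 144, 107 and 114 CPM in OCR and 89.2 and 104 CPM in OCRRF. Young libraries held 122, 103, 138 and 109 CPM in YAL, 173, 132, 123 and 139.8 CPM in YCR and 109.8, 97.1, 52.4 and 95.7 CPM in YCRRF. Restricted and freely fed libraries overlapped at both ages, whereas each refed library lay below every restricted library of its age. The log2 fold change was 0.06 ± 0.09 (SE) in OCR against OAL and 0.28 ± 0.12 in YCR against YAL, and after refeeding it was −0.47 ± 0.13 in OCRRF against OCR and −0.69 ± 0.21 in YCRRF against YCR. Without OCR replicate 1 or OCR replicate 2 the value in OCR against OAL turned, to −0.0092 at the lowest. The lowest value of 52.4 CPM came from YCRRF replicate 3, the library that stood apart.

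Tgfbr1 and Tgfbr2, the signalling receptors, differed less between groups. Tgfbr1 lay between 38.2 and 106 CPM over the 22 diet libraries, with a median of 57.6 CPM, and both extremes were YCRRF libraries. All 4 YCR libraries (42.3 to 56.1 CPM) lay below the 4 YAL libraries (56.4 to 65.1 CPM), a log2 fold change of −0.32 ± 0.13 (SE). In old cells OCR against OAL gave 0.14 ± 0.10, with overlapping libraries. The order of Tgfbr1 group means ran from OCR with 65.5 CPM over YCRRF, YAL, OAL and OCRRF to YCR with 49.0 CPM, and of the neighbours in that order only OCRRF and YCR did not overlap. Tgfbr2 lay between 27.5 and 118 CPM, with the lowest value again in YCRRF replicate 3, and no pair of groups compared for diet or age was free of overlap. Its log2 fold changes were −0.10 ± 0.09 in OCR against OAL and −0.24 ± 0.12 in YCR against YAL.

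Tgfbr3, or betaglycan, is a coreceptor that binds the ligand and presents it to the signalling receptors. Old libraries held 178, 187, 138 and 152 CPM in OAL, 185, 268, 214 and 213 CPM in OCR and 176 and 159.7 CPM in OCRRF. Among young libraries the values were 173, 211, 151 and 112 CPM in YAL, 149.9, 188, 197 and 169 CPM in YCR and 143, 172, 82.5 and 179 CPM in YCRRF. OCR had the highest group mean of the 6 diet groups, and its replicate 2 was the highest of the 22 libraries. OCR replicate 1, however, lay below OAL replicate 2, so those groups overlapped, and both OCRRF libraries lay below all 4 OCR libraries. The log2 fold change of 0.44 ± 0.10 (SE) in OCR against OAL was 0.32 without OCR replicate 2. Refeeding in old mice gave −0.45 ± 0.13 and CR in young mice 0.14 ± 0.17, the latter turning to −0.0031 without YAL replicate 4. The locus overlaps 4 annotated genes (Gm43422, Gm43423 and Gm42900 on its own strand and Gm8145 on the other), so its counts are uncertain to the extent that reads are shared, for Gm8145 only if reads were counted without regard to strand, which is not stated.

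Smad2 and Smad3 carry the signal of the activated receptor. Smad2 ranged from 42.0 to 106 CPM over the diet libraries, with a median of 73.4 CPM, and Smad3 from 92.7 to 142 CPM, with a median of 116 CPM (115.5). Smad2 was 0.18 ± 0.09 higher on the log2 scale in OCR than in OAL and 0.31 ± 0.15 (0.305) higher in YCR than in YAL, with overlapping libraries in both comparisons. Smad3 had a log2 fold change of −0.20 ± 0.08 in OCR against OAL and 0.14 ± 0.13 in YCR against YAL, again with overlap. All 4 OAL libraries (123 to 142 CPM) lay above the 4 YAL libraries (92.7 to 120.2 CPM) for Smad3, by 0.27 ± 0.09 (SE) on the log2 scale.

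Smad4, the partner that both share, had levels of 151, 147, 151 and 136 CPM in OAL and 132, 141, 111 and 143 CPM in OCR, which overlapped. In young cells they were 149.7, 192, 163 and 162 CPM in YAL and 133, 144, 138 and 121 CPM in YCR, where every restricted library lay below every freely fed one. The corresponding log2 fold changes were −0.13 ± 0.09 (SE) and −0.30 ± 0.10. Smad4 shares its locus with AC132418.2 on the other strand, so its counts are uncertain in the way that Gm8145 makes those of Tgfbr3.

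Smad7 is the inhibitory Smad that TGF-β itself induces. It stood at 31.3, 31.7, 26.4 and 33.2 CPM in OAL, 21.4, 23.0, 24.1 and 22.2 CPM in OCR and 25.5 and 25.1 CPM in OCRRF. Young libraries held 17.4, 26.6, 17.8 and 21.0 CPM in YAL, 26.1, 21.6, 15.6 and 30.5 CPM in YCR and 39.9, 21.7, 20.4 and 20.3 CPM in YCRRF. In old cells the 4 OCR libraries lay below the 4 OAL libraries, and the 2 OCRRF libraries fell between the 2 groups without touching either. In young cells the 3 groups overlapped, and the highest Smad7 value of all 22 libraries was YCRRF replicate 1. The log2 fold change was −0.42 ± 0.10 (SE) in OCR against OAL, 0.10 ± 0.14 in OCRRF against OCR, 0.20 ± 0.24 in YCR against YAL and 0.58 ± 0.16 in OAL against YAL. With 1 library left out it ran from 0.048 to 0.17 in OCRRF against OCR and from 0.0477 to 0.35 in YCR against YAL.

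Klf10 and Klf11 encode zinc finger transcription factors of the KLF family that were first described as early genes induced by TGF-β. Klf10 levels were 294, 264, 289.5 and 335 CPM in OAL, 144, 146, 141 and 150.2 CPM in OCR and 319.8 and 175 CPM in OCRRF. The OCR libraries formed a narrow band below all others of the 22, while OCRRF replicate 1 lay inside the OAL range and replicate 2 between OCR and OAL. In young mice Klf10 was 323, 306, 303 and 271 CPM in YAL, 272, 189, 162 and 153 CPM in YCR and 221, 224, 222 and 297 CPM in YCRRF. YCR replicate 1 touched the YAL range and the other 3 YCR libraries lay clearly below it. Those 3 libraries also held more of the B lymphoid markers, 209, 402 and 230.4 CPM led by Jchain, than replicate 1 with 44.7 CPM and Jchain at 0, and the part of this difference in the Klf10 levels was not tested. The log2 fold change with CR was −1.01 ± 0.08 (SE) in old and −0.62 ± 0.15 in young cells, and the latter was −0.82 without YCR replicate 1. The difference of the 2 responses, fitted as an interaction of age and diet, was −0.39 ± 0.18 on the log2 scale.

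Klf11, at a lower level, followed a similar order of groups. It stood at 46.8, 47.8, 55.0 and 59.0 CPM in OAL, 15.9, 22.0, 19.5 and 19.0 CPM in OCR and 64.3 and 24.4 CPM in OCRRF. In young mice it was 54.7, 56.3, 64.1 and 59.1 CPM in YAL, 21.1, 24.4, 18.5 and 30.4 CPM in YCR and 36.7, 26.3, 40.4 and 45.1 CPM in YCRRF. Restricted libraries lay below freely fed ones without overlap at both ages, with log2 fold changes of −1.43 ± 0.11 (SE) in old and −1.29 ± 0.18 in young cells and an interaction of −0.14 ± 0.21. Refed libraries were spread widely, with OCRRF replicate 1 above all OAL libraries and replicate 2 just above the OCR range. YCRRF libraries lay between the YCR and YAL groups for Klf11, except that replicate 2 fell inside the YCR range.

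For both targets the value after refeeding in old mice rested on 1 library. OCRRF against OCR gave log2 fold changes of 0.72 ± 0.14 (SE) for Klf10 and 1.17 ± 0.20 for Klf11. Without OCRRF replicate 1 these were 0.17 and 0.26 (0.255). Refeeding in young mice gave 0.30 ± 0.18 for Klf10 and 0.64 ± 0.24 for Klf11. With 1 library left out, the value for Klf10 ran from 0.18 to 0.50 and that for Klf11 from 0.52 to 0.79. Old and young freely fed cells held similar amounts, with −0.01 ± 0.08 for Klf10, which turned to 0.03 with RLE factors and to 0.0381 without OAL replicate 2, and −0.15 ± 0.11 for Klf11 in OAL against YAL.

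Across the 22 diet libraries, with log2 CPM centred on the mean of each age, the genes most like Klf10 among 12327 genes of at least 5 CPM were Gm15441 (Pearson r = 0.929, Spearman rho = 0.897), Txnip (0.926 and 0.894) and Arrdc4 (0.875 and 0.867). Txnip and Arrdc4 are arrestin-family genes known to respond to glucose, and Gm15441 lies antisense to Txnip, so reads of those 2 may be shared. Klf11 came next for Klf10, at rank 4, with r = 0.874 and rho = 0.817. For Klf11 the leading genes were Klf10, then Arrdc4 (0.859 and 0.844) and Txnip (0.855 and 0.863). Smad7 was most like Tbce, 1600014C10Rik and Sec31b (r = 0.807, 0.760 and 0.752), with lower rho of 0.678, 0.640 and 0.5675. Its r with Klf10 was 0.218 (rho = 0.282). Tgfbr3 was most like Atp11b, Setd2 and Fam20b (r = 0.850, 0.848 and 0.834), with lower rho of 0.7685, 0.713 and 0.763. With Klf10 its r was −0.324 (rho = −0.395). These correlations pool libraries of the 6 diet groups, so they hold the differences between groups as well as those within them.

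**Figure D2:**
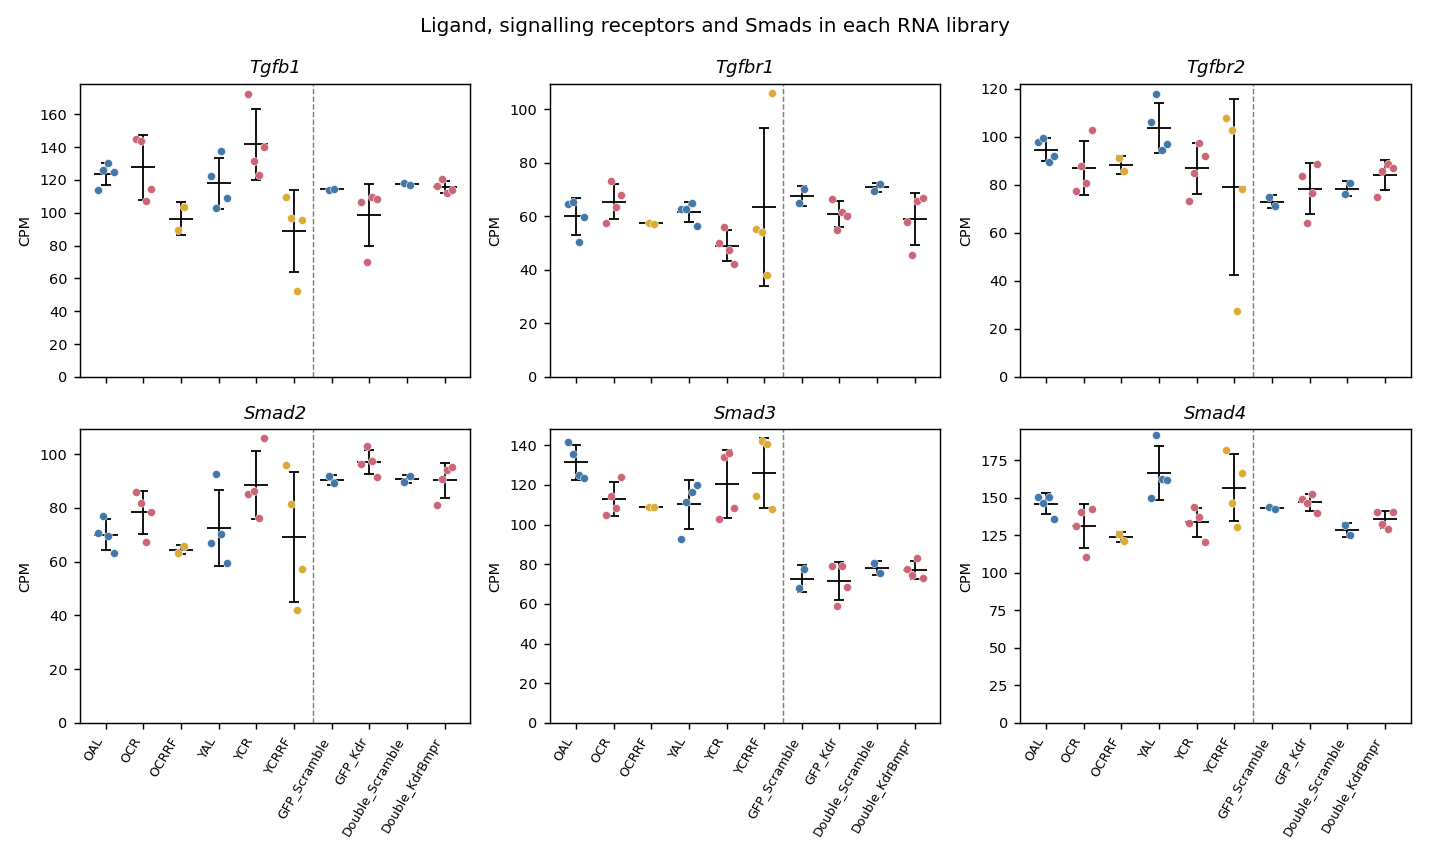
CPM of Tgfb1, Tgfbr1, Tgfbr2, Smad2, Smad3 and Smad4 in each RNA library (points) with the group mean (bar) and SD (error bar), with diet and transplant groups scaled separately on the 2 sides of the dashed line. Tgfb1 lies lower in both refed groups than in the restricted group of the same age, and Smad4 lies lower in YCR (121 to 144 CPM) than in YAL (149.7 to 192 CPM).

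To place these values, a gene was called changed when edgeR's quasi-likelihood test gave a Benjamini-Hochberg adjusted p below 0.05 over all genes tested and a fold change above 1.2 in either direction. In OCR against OAL 4 of 10 members (Tgfbr3, Smad7, Klf10 and Klf11) were past this threshold beside 5.57% of 27150 genes, and 3 of 10 had no overlap between libraries beside 11.4%. In YCR against YAL 1 of 10 (Klf11) was past it beside 0.364% of 18680 genes, and 3 of 10 had no overlap beside 6.32%. OCRRF against OCR had 4 of 10 (Tgfb1, Tgfbr3, Klf10 and Klf11) beside 3.41% of 32577 genes, and 7 of 10 without overlap beside 28.3%, with only 2 libraries in 1 group. YCRRF against YCR had 0 of 10 beside 0.0102% of 19535 genes, with 0 of 10 by DESeq2, and 1 of 10 without overlap beside 5.52%. OAL against YAL had 1 of 10 (Smad7) beside 14.8% of 23525 genes, and 1 of 10 (Smad3) without overlap beside 27.5%. Since the members were chosen with these contrasts, or contrasts that share their libraries, in view, nothing is read from those counts.

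Membership past the threshold shifted with single libraries in several cases. In OCR against OAL, Smad7 was no longer past it without OAL replicate 2 or OAL replicate 4 (log2 fold change −0.38 in both cases), and Tgfbr3 without OCR replicate 2. In YCR against YAL, Klf11 dropped out without YAL replicate 2, 3 or 4 or YCR replicate 1 or 2, with log2 fold changes of −1.32 to −1.23, and Klf10 came in without YCR replicate 1. In OCRRF against OCR, Klf10 and Klf11 dropped out without OCRRF replicate 1. In that comparison Tgfb1 dropped out without OCR replicate 2 (−0.40), OCRRF replicate 1 (−0.40) or OCRRF replicate 2 (−0.52), and Tgfbr3 without OCR replicate 2 (−0.33), OCRRF replicate 1 (−0.56) or OCRRF replicate 2 (−0.32), while Smad2 came in without OCR replicate 3 (−0.41). In OAL against YAL, Smad7 dropped out without YAL replicate 1 (0.50), YAL replicate 3 (0.50) or any 1 of the 4 OAL libraries (0.54 to 0.64), and Smad3 came in without YAL replicate 4 (0.30). No direction changed in these cases. The number of genes called over the whole table moved as well, from 68 to 6 in YCR against YAL without YCR replicate 2, from 1110 to 352 in OCRRF against OCR without OCRRF replicate 1, and from 3486 to 1475 in OAL against YAL without OAL replicate 1.

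Other fits moved membership too. A block for the replicate number dropped Klf11 in YCR against YAL (−1.32) and Smad7 in OAL against YAL (0.60). The same block put Smad2 past the threshold in OCRRF against OCR (−0.45). In OCRRF against OCR, DESeq2 put Smad2 past the threshold and not Klf11, TMM factors from genes of at least 5 CPM dropped Tgfb1 and Tgfbr3, and 1 fit of all 6 diet groups dropped Tgfb1, Tgfbr3 and Klf10. In YCRRF against YCR, Tgfb1 was past the threshold in that 1 fit (−0.68) and without the low count filter (−0.70). In OCR against OAL, Smad7 and Tgfbr3 dropped out in the 1 fit, and in YCR against YAL Klf10 came in by DESeq2 and without the filter. In OAL against YAL, Smad7 dropped out in the 1 fit and Smad3 came in by DESeq2, RLE and TMM from genes of at least 5 CPM. The scaling also moved some directions. With TMM factors from genes of at least 5 CPM, the log2 fold change in OCRRF against OCR became 0.10 for Tgfbr2 (−0.04 before) and 0.02 for Smad3 (−0.11 before). In OAL against YAL it became 0.08 for Tgfbr1 (−0.03 before), 0.08 for Smad2 (−0.04 before) and 0.10 for Klf10. Over all genes the median shifted from 0.11 to 0.24 in OCRRF against OCR and from 0.05 to 0.16 in OAL against YAL under that scaling. Over genes of at least 5 CPM, however, it went from −0.14 to −0.0023 and from −0.13 to −0.0196, so the main fit put the median of such genes below 0. DESeq2 put the median in OAL against YAL at 1.02 over 50838 genes and at −0.0892 over genes of at least 5 CPM. The share of called genes that were higher moved with the scaling, from 45.6% to 56.2% (38.4% by DESeq2) in OCR against OAL, from 20.4% to 37.3% (6.32% by DESeq2) in OCRRF against OCR, and from 46.5% to 70.5% (75.1% by DESeq2 and 56.0% by RLE) in OAL against YAL. In YCR against YAL the share was 25.0%, and 43.8% by DESeq2.

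**Figure D3:**
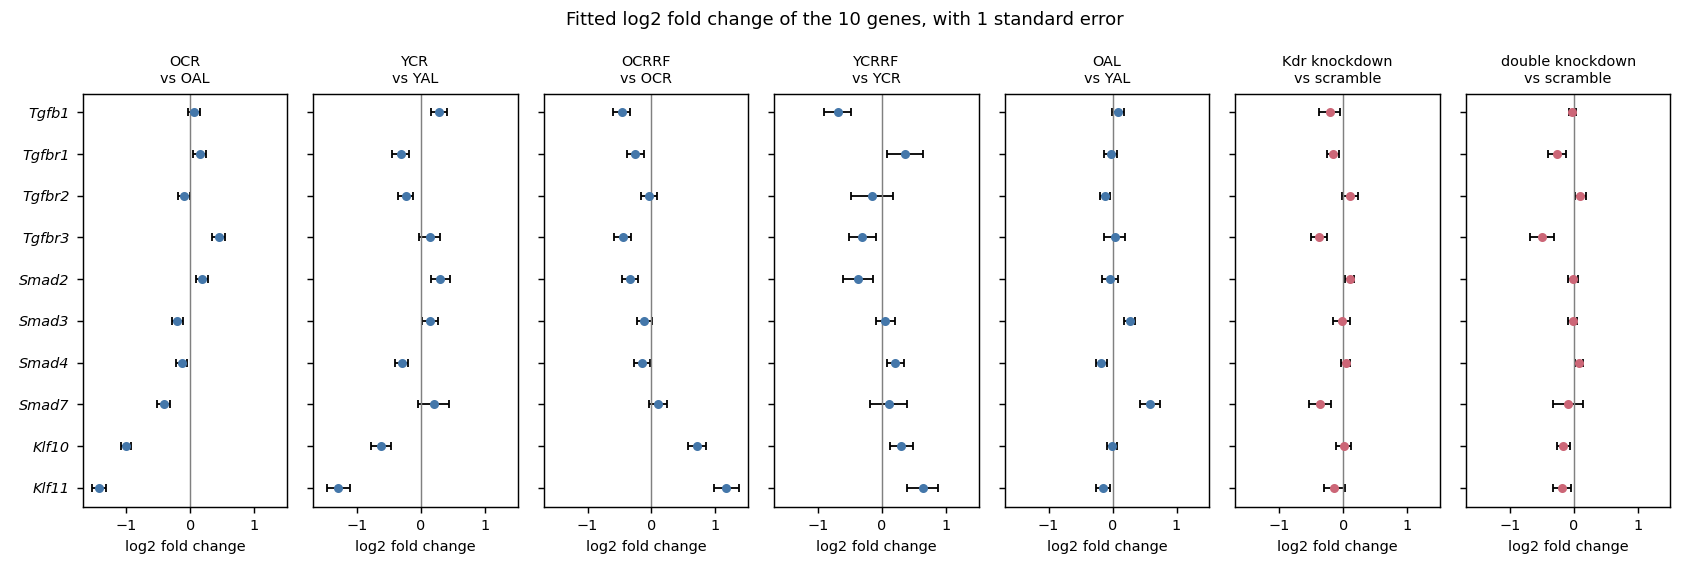
Log2 fold change (point) with 1 SE (bar) of the 10 genes in the 5 diet and age comparisons and the 2 knockdown comparisons. Klf10 and Klf11 lie furthest from 0 in OCR against OAL, at −1.01 and −1.43; all values are a description without a test.

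Other genes of the pathway were taken as 5 lists of 74 genes in all. They covered 21 genes for ligands, their activation and binding, 8 receptors and coreceptors, 18 regulators of Smads, 13 target genes and 15 other KLF genes, with Ltbp1 standing in 2 lists. The lists were drawn up with earlier results of these data known, so their counts and p describe these lists and are no independent support for a change of the pathway. In OCR against OAL 11 of 72 tested list genes were called, 0 higher and 11 lower, beside 5.57% of all genes, and DESeq2 called 14 beside 10.7% of all genes. The median log2 fold change of the lists was 0.02, as was that of all genes. The target gene Tgfbi (0.38), picked out after its value was seen, was called higher without the low count filter (edgeR adjusted p = 0.00668). It was also called without OAL replicate 1 (0.0168), OAL replicate 4 (0.0435) or OCR replicate 4 (0.0352). Without the filter Inha, Klf12, Ski and Skil came in as well, all lower.

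On the ligand side, Ltbp4 and Ltbp3, which bind latent TGF-β to the matrix, and the ligand gene Tgfb3 fell with lifelong CR. Ltbp4 was 48.3 ± 3.14 CPM (SD, n = 4) in OAL and 24.7 ± 2.35 CPM (SD, n = 4) in OCR, which is −0.95 ± 0.10 on the log2 scale (SE, edgeR adjusted p = 9.96e-08). Tgfb3 went from 14.2 ± 2.28 to 8.95 ± 1.27 CPM (−0.65 ± 0.15, edgeR adjusted p = 0.00507) and Ltbp3 from 187 ± 15.4 to 137 ± 8.13 CPM (−0.43 ± 0.08, edgeR adjusted p = 0.000789). In each of these 3 genes all 4 OCR libraries lay below all 4 OAL libraries. Furin, a protease that cleaves the TGF-β precursor and that lies outside the rule for named genes, was the remaining called gene among 20 tested (−0.27 ± 0.08, edgeR adjusted p = 0.0352), and it lost the call when any 1 of 6 libraries was left out (OAL replicate 1, 2 or 4 or OCR replicate 1, 2 or 4, with adjusted p from 0.0651 to 0.146). Of the receptors, Eng (endoglin, a coreceptor) fell by 0.34 ± 0.08 on the log2 scale (316 ± 16.9 CPM in OAL, edgeR adjusted p = 0.0097, n = 4 each), with adjusted p = 0.0529 without OAL replicate 4 and 0.0523 without OCR replicate 1.

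Among Smad regulators, Zfyve9, also called SARA, which holds Smad2 and Smad3 near the receptor, was the only called gene of 18. It stood at 15.8 ± 0.756 CPM (SD, n = 4) in OAL and 10.6 ± 1.95 CPM (SD, n = 4) in OCR (−0.56 ± 0.14, edgeR adjusted p = 0.0114, and 0.0594 without OCR replicate 1). Among targets, 3 of 12 were called, all lower: Junb, a subunit of AP-1 (−0.60 ± 0.11, edgeR adjusted p = 0.000862), Bhlhe40, a transcriptional repressor (−0.77 ± 0.17, 0.00457, and 0.0795 by DESeq2; −0.40 without OAL replicate 1), and Tsc22d1, a leucine zipper protein (−0.34 ± 0.08, 0.00844). In OAL the Bhlhe40 libraries ran from 33.5 to 81.0 CPM and in OCR from 24.8 to 31.5 CPM. Of the other KLF genes, Klf9 and Klf6 were called, both lower. Klf9 went from 54.6 ± 5.41 to 36.2 ± 1.81 CPM (−0.58 ± 0.09, edgeR adjusted p = 9.84e-05) and Klf6 from 75.8 ± 8.16 to 50.4 ± 5.17 CPM (−0.57 ± 0.10, edgeR adjusted p = 0.000159), with 2 of 15 tested KLF genes called and a list median of −0.06. When all 6 diet groups shared 1 fit, only Klf9 of these 11 genes remained called, and the cause was not tested.

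In YCR against YAL 0 of 61 tested list genes were called by edgeR, 11 had an unadjusted p below 0.05 beside 9.29% of all genes, and DESeq2 called 1 beside 2.56% of all genes. That gene was Fkbp1a, which binds the type I receptor (log2 fold change −0.40 ± 0.08, edgeR adjusted p = 0.0757, DESeq2 adjusted p = 0.00247), and it was picked out after its value was seen. Ltbp4 had a log2 fold change of −1.12, and without the low count filter it was called (edgeR adjusted p = 8.01e-05), as were Klf8 (0.0236) and Skil (0.000552), all 3 chosen after their values were seen. The test of the difference between the ages, an interaction of age and diet, called 0 of 72 list genes by edgeR beside 0.0318% of all 28328 genes, with 9 at an unadjusted p below 0.05 beside 8.80% (8.8) and 0 by DESeq2 beside 0.829%. The calls in old cells are thus not shown to differ from young cells. The members' own differences ran from −0.62 ± 0.26 (SE) for Smad7 to 0.46 ± 0.16 for Tgfbr1, with −0.34 ± 0.15 for Smad3, and 0 of 10 were past the threshold by edgeR or by DESeq2.

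Refeeding of old mice called 6 of 73 tested list genes, 4 higher and 2 lower, beside 3.41% of all genes. DESeq2 also called 6, beside 17.4% of all genes. Of these 3 were the same, and DESeq2 did not call Tgfb2, Junb (adjusted p = 0.0709) or Ski (adjusted p = 0.132). Its other 3, chosen after their values were seen, were Klf13, Strap and Usp15, all lower. Tgfb2, a further ligand gene, was higher in OCRRF (2.94 and 3.56 CPM) than in OCR (0.805 to 1.36 CPM), at 1.495 ± 0.35 (SE, edgeR adjusted p = 0.00775) on the log2 scale. The targets Bhlhe40 (0.68 ± 0.14, edgeR adjusted p = 0.00199) and Junb (0.52 ± 0.14, 0.0263) and the KLF gene Klf9 (0.54 ± 0.12, 0.0079) were higher as well, and these 3 were among those lower in OCR against OAL, a comparison that shares the OCR libraries. Nrros, which anchors latent TGF-β on myeloid cells (−0.43 ± 0.13, edgeR adjusted p = 0.0494), and Ski, a corepressor of Smads (−0.69 ± 0.18, 0.0191), were lower. With 2 OCRRF libraries these calls were fragile: without OCRRF replicate 1 only 1 list gene (Ski) was called. The adjusted p was then 0.0862 for Tgfb2, 0.384 for Bhlhe40 (log2 fold change 0.45), 0.659 for Junb (0.22), 0.214 for Klf9 and 0.485 for Nrros. Without OCRRF replicate 2 it was 0.204 for Tgfb2, 0.0717 for Klf9, 0.219 for Nrros and 0.54 for Ski (log2 fold change −0.43). Without OCR replicate 2 it was 0.061 for Junb, 0.123 for Nrros and 0.068 for Ski, and without OCR replicate 4 it was 0.0565 for Junb. TMM factors from genes of at least 5 CPM ended the calls of Nrros (0.131) and Ski (0.121), RLE factors that of Junb (0.0678), and 1 fit of all 6 diet groups all 6. Medians were 0.04 for the list genes and 0.11 for all genes.

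Refeeding of young mice called 0 of 63 tested list genes by edgeR, with 12 at an unadjusted p below 0.05 beside 7.27% of all genes and 3 called by DESeq2 beside 1.90% (1.9). Those 3, picked out after their values were seen, were Tgfbi, a matrix protein gene named for its induction by TGF-β (1.31 ± 0.23, DESeq2 adjusted p = 3.06e-05, edgeR adjusted p = 0.133), Myc (−0.55 ± 0.13, 0.0297 and 0.254) and Klf9 (0.54 ± 0.15, 0.0409 and 0.35). Only 2 genes of the whole table were called there by edgeR, Slfn2 and Pqlc3.

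In OAL against YAL 12 of 70 tested list genes were called, 5 higher and 7 lower, beside 14.8% of all genes, and DESeq2 called 21 beside 21.6% of all genes. Higher in old cells were Skil, a corepressor of Smads (1.28 ± 0.31 SE, edgeR adjusted p = 0.0203), Zfyve9 (0.59 ± 0.18, 0.044), Usp9x, a deubiquitinase (0.52 ± 0.13, 0.0266), and Tgfbi (1.196 ± 0.19, 0.00327). The fifth was Inhbb, a subunit gene of activin and inhibin, which stayed under the level required for naming and is given here after its value was seen (edgeR adjusted p = 0.00992). Lower in old cells were the receptor gene Acvr2b (9.39 ± 0.516 CPM in OAL and 16.6 ± 1.45 CPM in YAL, SD, n = 4 each), at −0.81 ± 0.15 (edgeR adjusted p = 0.00746), and Fkbp1a (−0.42 ± 0.08, 0.00817). So were Pmepa1, a membrane protein that holds back Smad2 and Smad3 (2.78 ± 0.619 against 8.47 ± 0.878 CPM, −1.59 ± 0.25, edgeR adjusted p = 0.00314), and Tgif2, a corepressor (−0.42 ± 0.12, 0.0373). Cdkn1c, which encodes the cell cycle inhibitor p57, was 67.0 ± 6.47 CPM in OAL and 106 ± 2.90 CPM in YAL (−0.65 ± 0.08, edgeR adjusted p = 0.00118). The KLF genes Klf1, a regulator of erythroid cells (−1.77 ± 0.33, edgeR adjusted p = 0.00715), and Klf2 (−1.26 ± 0.32, 0.0231) were the last of the 7. Klf1 also stands in the list of erythroid markers and is the 1 erythroid marker given above as lower in this comparison.

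Several of these age calls were lost when a library was left out. Klf2 had an adjusted p of 0.0546 to 0.0842 without any 1 of the OAL libraries, and Tgif2 one of 0.0813 to 0.105 without any 1 of them and 0.0533 without YAL replicate 3. Zfyve9 had 0.103 to 0.135 without any 1 OAL library, 0.0685 without YAL replicate 1 and 0.0682 without YAL replicate 4. Skil had 0.0715 and 0.069 without OAL replicates 1 and 2, and Usp9x 0.0889 and 0.0854 without the same libraries and 0.0577 and 0.0557 without YAL replicates 1 and 3. Tgif2 was also lost with RLE factors (0.0585) and with TMM factors from genes of at least 5 CPM (0.116). With all 6 diet groups in 1 fit the adjusted p was 0.0512 for Klf1, 0.0519 for Klf2, 0.377 for Usp9x, 0.118 for Zfyve9 and 0.0736 for Tgif2. Without the low count filter Zfyve9 had 0.0722. With a block for the replicate number the edgeR adjusted p was 0.07 for Klf2, 0.0978 for Tgif2, 0.0982 for Zfyve9 and 0.086 for Inhbb. Bhlhe40 (0.0319) and Tgfb3 (0.0388), both higher, came in with that block. The number of list genes called ran from 7 without OAL replicate 1 to 17 without YAL replicate 4.

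In the knockdown comparisons Kdr, the main VEGF receptor, or Kdr together with Bmpr1a, a BMP type I receptor, was targeted in transplanted old HSCs. Kdr itself was 6.04 and 6.07 CPM in GFP_Scramble and 1.93, 2.21, 3.28 and 2.03 CPM in GFP_Kdr. In the double experiment it was 3.97 and 4.62 CPM in Double_Scramble and 1.24, 0.555, 1.60 and 1.35 CPM in Double_KdrBmpr. Kdr was lower in every knockdown library than in its controls, by −1.35 ± 0.25 on the log2 scale (SE, edgeR adjusted p = 0.247; DESeq2 adjusted p = 0.00346) and −1.86 ± 0.37 (edgeR adjusted p = 0.272; DESeq2 adjusted p = 0.00569). Bmpr1a was 5.21 and 4.43 CPM in Double_Scramble and 4.44, 0.656, 2.22 and 0.595 CPM in Double_KdrBmpr, the first 2 of these 4 with Bmpr1a hairpin 1. The groups overlapped narrowly, 1 library of hairpin 1 being as high as the lower control, and the change of −1.29 ± 0.72 (SE, edgeR adjusted p = 0.602) did not pass. In the libraries with the Kdr hairpin alone, Bmpr1a was 1.67, 3.73, 7.96 and 7.67 CPM against 8.29 and 4.37 CPM in their controls.

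No member was past the threshold in either knockdown, and since the rule names these libraries the counts are a description. In GFP_Kdr against GFP_Scramble edgeR called 0 of 10 members beside 0.0149% of 20098 genes, and DESeq2 called 0 beside 1.69%. In Double_KdrBmpr against Double_Scramble edgeR called 0 of 10 beside 0.00498% of 20072 genes, and DESeq2 called 0 beside 1.82%. Libraries did not overlap for 3 of 10 members (Tgfb1, Tgfbr3 and Smad7, all lower) beside 21.9% of all genes in the former and for 2 of 10 (Tgfbr1 and Tgfbr3, both lower) beside 21.3% in the latter. Over the whole tables edgeR called 3 genes in the former (Cd74, H2-Aa and Il1rapl2) and 1 (Tmem164) in the latter.

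Tgfbr3 was 143 and 129 CPM in GFP_Scramble and 103, 84.3, 116 and 115 CPM in GFP_Kdr, and 123 and 132 CPM in Double_Scramble and 114, 69.8, 103 and 74.1 CPM in Double_KdrBmpr. All 8 knockdown libraries lay below the controls of their own experiment. The log2 fold changes were −0.38 ± 0.13 (SE) and −0.50 ± 0.19. Some marker sums split the same way. The 3 markers that a sort excluded summed to 398.7 and 474.9 CPM in GFP_Scramble, 493 to 588.7 CPM in GFP_Kdr, 496.1 and 540.9 CPM in Double_Scramble and 592.3 to 925 CPM in Double_KdrBmpr. Summed B lymphoid markers, led by Cd79b in every transplant library, were also higher in every knockdown library than in its controls. Summed stroma and endothelium markers were lower, but their leading gene Emcn overlapped with the controls in both experiments. Emcn was 19.53 CPM in GFP_Kdr replicate 3 against 18.98 and 20.14 CPM in GFP_Scramble. It was 29.94 CPM in the second library of hairpin 1 against 18.08 and 24.23 CPM in Double_Scramble. Cycling genes summed to 583.5 to 702.2 CPM in GFP_Kdr against 520.7 and 577.7 CPM in GFP_Scramble, and they overlapped in the double experiment. The part of these differences in the Tgfbr3 values was not tested.

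Klf10 was 274 and 352 CPM in GFP_Scramble and 298, 353, 299.9 and 308 CPM in GFP_Kdr, and 286 and 322 CPM in Double_Scramble and 301, 286, 260.4 and 237 CPM in Double_KdrBmpr. Knockdown and control libraries overlapped in both experiments. Its log2 fold changes were 0.0074 ± 0.11 (SE) and −0.16 ± 0.10, and the former turned with the scaling and ran from −0.16 to 0.20 with 1 library left out, the extremes being without GFP_Scramble replicate 1 and 2. For Klf11 the libraries held 59.1 and 69.2 CPM and 46.1, 64.8, 52.3 and 70.5 CPM in the former experiment and 56.9 and 65.3 CPM and 47.8, 55.0, 47.9 and 64.5 CPM in the latter, in the same order of groups. The log2 values were −0.14 ± 0.17 and −0.18 ± 0.13 for Klf11, with overlap in both. Smad7, at 5.11 to 9.42 CPM over the 12 transplant libraries, gave −0.36 ± 0.17 and −0.09 ± 0.24, the latter turning to 0.0436 without the second library of hairpin 2, and Tgfb1 gave −0.21 ± 0.16 and −0.02 ± 0.06. With 1 library left out, values in the Kdr knockdown ran from −0.26 to −0.0796 for Tgfb1 and from −0.24 to −0.0182 for Klf11. In the double knockdown they ran from −0.25 to −0.0682 for Klf10 and from −0.28 to −0.0727 for Klf11. The remaining members lay between −0.26 and 0.10 on the log2 scale in both knockdowns, with SEs of 0.06 to 0.24 over the 10 genes and 2 control libraries each.

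Of the wider lists, edgeR called 0 of 62 tested genes in the Kdr knockdown, with 16 at an unadjusted p below 0.05 beside 8.90% (8.9) of all genes and 4 by DESeq2 beside 1.69%. Those 4, picked out after their values were seen, were Inhba, a subunit gene of activin (−1.46 ± 0.32, DESeq2 adjusted p = 0.0304, edgeR adjusted p = 0.278), Klf9 (−0.48 ± 0.10, 0.0133 and 0.271), Ltbp3 (−0.41 ± 0.08, 0.00298 and 0.247) and Usp9x (−0.35 ± 0.08, 0.0297 and 0.325). In the double knockdown edgeR called 0 of 64, with 17 at an unadjusted p below 0.05 beside 9.85% of all genes and 2 by DESeq2 beside 1.82%, namely Bhlhe40 (−0.52 ± 0.14, DESeq2 adjusted p = 0.0457, edgeR adjusted p = 0.321) and Klf1 (−1.79 ± 0.42, 0.00097 and 0.296). List medians were −0.11 and −0.12 against −0.0023 and −0.0005 for all genes. By list, the medians in the Kdr and the double knockdown were −0.35 and −0.41 for ligands, activation and binding, 0.17 and 0.05 for receptors, −0.10 and −0.05 for Smad regulators, −0.09 and 0.03 for targets, and −0.18 and −0.31 for other KLF genes. Cycling genes summed to 549 CPM in GFP_Scramble and 635 CPM in GFP_Kdr, and to 917 CPM in Double_Scramble and 877 CPM in Double_KdrBmpr.

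Chromatin accessibility was compared between OCRRF and OCR, in 123372 tested peaks, with peaks called if the adjusted p was under 0.05, the fold exceeded 1.5 and the log2 CPM averaged over 1.5. Each of the 10 genes had an open promoter peak within 1 kb of a start site, 12 peaks in all, and in OCR these stood at percentiles 78.9 to 99.8 of all peaks by height. The highest was that of Klf11 (chr12:24650754-24652464, 123 CPM), followed by those of Smad2 (chr18:76240735-76242485, 73.3 CPM) and Klf10 (chr15:38298793-38300158, 72.9 CPM). By edgeR 0 of 12 promoter peaks were called beside 0.221% of all peaks, with 3 at an unadjusted p below 0.05 beside 11.7%, and DESeq2, which called 0.495% of its peaks, called 0 as well.

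The Klf10 promoter peak came nearest to the threshold for the p. It measured 73.4, 74.9, 71.1 and 72.1 CPM in OCR and 92.3 and 80.3 CPM in OCRRF, so both refed libraries lay above all 4 restricted ones. The log2 fold change was 0.24 ± 0.06 (SE, edgeR adjusted p = 0.0592), below the fold required. The Smad7 promoter peak, whose nearest annotated start is that of Gm20544, was 0.22 ± 0.08 higher in OCRRF (edgeR adjusted p = 0.192). That of Tgfbr2 gave −0.25 ± 0.10 (edgeR adjusted p = 0.293), and that of Klf11 0.06 ± 0.06 (edgeR adjusted p = 0.729), turning to −0.0142 without OCRRF replicate 1. Within 50 kb of a start site of the 10 genes lay 129 tested peaks, their median being 0.03 on the log2 scale, and 1 was called. It lay in an intron of Tgfbr2 (chr9:116160049-116161491) with 13.5, 11.6, 7.48 and 10.5 CPM in OCR and 5.29 and 7.12 CPM in OCRRF, or −0.80 ± 0.19 on the log2 scale (SE, edgeR adjusted p = 0.0297). Every OCRRF value there was below every OCR value, and the call was lost without OCR replicate 1 (−0.67), OCR replicate 2 (−0.76), OCRRF replicate 1 (−0.60) or OCRRF replicate 2 (−1.02).

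In OCR cells the promoters carried H3K4me3, a mark of active starts, and little H3K27me3, the mark of Polycomb repression. The deposited H3K4me3 values cover 750 bases downstream of the start and those of H3K27me3 2000 bases, while the methods of the paper describe another H3K4me3 window, on both sides of the start. At the start site with the highest H3K4me3 signal, Klf10 had 47.0 and 47.5 in the 2 replicates, the 98.2th percentile among 25127 genes treated alike (median 10.5). Next came Smad3 with 43.2 and 43.8, Tgfbr3 with 45.0 and 41.5, Tgfbr2 with 42.9 and 41.7, Klf11 with 38.0 in both, Tgfb1 with 36.2 and 37.3, and Smad7 with 36.3 and 33.8. Tgfbr1 (30.7 and 24.9), Smad4 (17.8 and 17.7) and Smad2 (13.5 and 13.7) were lower, at percentiles 72.3, 58.1 (58.05) and 53.3 (53.25). H3K27me3 averaged from 0.0323 for Klf10 to 0.298 for Smad4, all 10 below the median of 0.323 over all genes. Averaged over annotated transcripts instead of taken at the strongest start, Smad2 moved to percentile 44.3, while the other 9 stayed above 50, and Tgfbr1 moved to 0.331 for H3K27me3, at percentile 50.1 (50.09).

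PU.1, a transcription factor of blood cells, had peaks near some of the 10 genes. The antibody of replicate 1 is given by the labels and that of replicate 2 is not. The paper lists 2 PU.1 antibodies and does not tie them to replicates, so diet replicates may differ in antibody. Within 50 kb of their start sites 5 and 4 peaks were called in the OAL libraries, 7 and 7 in OCR, and 4 and 4 in OCRRF, with a peak near 3 to 5 of the 10 genes. Over all genes the share with such a peak was 18.1% to 19.4% in OAL, 23.3% to 31.4% in OCR and 15.0% to 17.9% in OCRRF, following the number of peaks per library (2262 to 5464). At 3 loci a peak was called in all 6 libraries. The strongest, 49679 bases before the nearer start of Tgfbr1 and in Col15a1 (chr4:47303292-47303723), had fold enrichments of 15.2 and 14.0 in OAL, 17.5 and 16.8 in OCR, and 12.9 and 11.3 in OCRRF. An intron of Smad3 (chr9:63721540-63721980) had 11.5 and 8.30 in OAL, 10.7 and 8.26 in OCR, and 5.502 and 5.81 in OCRRF. The remaining locus lay in an exon of B9d2, 5798 bases from the start of Tgfb1 (chr7:25680975-25681361), with 9.50 to 13.2 over the 6 libraries. Both refed libraries were lower than the other 4 at the Col15a1 and Smad3 loci, and not at the B9d2 locus. A peak in an exon of Tgfb1 (chr7:25689106-25689458) was called in the 4 OAL and OCR libraries (6.56 to 7.15) and in no OCRRF library, and one 3267 bases before Tgfbr3 (chr5:107292705-107293045) in both OCR libraries alone (5.90 and 5.97). A peak in an intron of Smad7 (chr18:75392441-75392795) was called in OAL replicate 1 (4.98) and OCRRF replicate 1 (6.49) and in no OCR library. One in an intron of Tgfbr1 (chr4:47400002-47400297) was called in both OCR libraries (7.39 and 5.92) and in OCRRF replicate 2 (6.87). Peaks near Tgfbr1 (chr4:47340130-47340385) and Tgfbr2 (chr9:116216685-116216981) were each called in a single OCR library. No peak lay within 50 kb of Klf10, Klf11, Smad2 or Smad4. With 2 libraries per diet and peaks called in each library separately, these differences were not tested.

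The 101 bases around the highest summit are shown for 2 PU.1 loci with peaks in all 6 libraries, near a receptor and a Smad gene. These windows lie in introns, although the peak near Tgfbr1 also overlaps an exon of Col15a1. Capitals mark the letters AGGAAG, the core that the factor is known to bind, or CTTCCT on the other strand. The Col15a1 window (build GRCm38.p6, chr4:47303470-47303570, plus strand, intron of Col15a1) holds 2 matches and the Smad3 window (chr9:63721697-63721797, plus strand, intron of Smad3) holds 0. The letters occur in 55.1% to 57.7% of all such windows of the 6 libraries, and a match describes the sequence only.

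Col15a1 intron near Tgfbr1: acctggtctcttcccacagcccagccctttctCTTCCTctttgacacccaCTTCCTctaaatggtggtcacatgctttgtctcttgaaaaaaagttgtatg

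Smad3 intron: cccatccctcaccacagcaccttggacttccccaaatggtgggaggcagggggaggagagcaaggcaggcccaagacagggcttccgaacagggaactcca

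Promoter sequences, taken from RefSeq (GRCm38.p6), were present in the table used for 5 of the 10 genes, Tgfb1, Tgfbr1, Tgfbr2, Smad3 and Klf11, and not used for Tgfbr3, Smad2, Smad4, Smad7 and Klf10. In the 250 bases before the start, Klf11 held 4 matches of the GC box letters GGGCGG, a motif that KLF and Sp factors are known to bind, counted on both strands and in 3 separate stretches. Tgfb1 held 5, Smad3 and the main Tgfbr1 start 2 each and Tgfbr2 0, and 32.7% of 32851 promoters hold at least 1. The Smad box letters GTCTG occur in 42.2% of promoters and were absent from this window of Klf11, Smad3, Tgfb1 and the main Tgfbr1 start, with 1 match in that of Tgfbr2. CACCC, found in 52.0% of promoters, had 3 matches for Tgfb1, 1 for Tgfbr2 and 0 for Klf11. No match says only that these letters are not in the window. The first 153 bases of the Klf11 window, upstream of the annotated transcript, are shown because that promoter had the highest accessibility of the 10 genes (chr12:24651121-24651273, plus strand). Capitals mark 2 overlapping matches of CCGCCC, the GC box read on the other strand.

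Klf11 promoter: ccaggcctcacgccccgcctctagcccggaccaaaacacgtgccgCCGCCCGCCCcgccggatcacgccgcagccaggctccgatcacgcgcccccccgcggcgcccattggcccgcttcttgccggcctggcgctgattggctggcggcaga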

How the data were processed

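RNA was sequenced in 34 libraries, and the counts per gene were made by the authors with cutadapt, STAR against mm10 and featureCounts, and deposited without scaling, with the strand setting not stated. ATAC-seq read counts per consensus peak were deposited by the authors after cutadapt, BWA and MACS2. The histone signal is the authors' mean signal per base in windows downstream of each start site, as deposited, and the paper states that histone libraries were normalized to a common number of reads. For PU.1 the authors deposited MACS2 peaks per library, whose fold enrichment over local background at the summit is the ratio used here. Their −log10 p and −log10 q columns were deposited by the authors as MACS2 wrote them, and the −log10 q was used only to thin peaks in an alternative. The integer score in those files, deposited by the authors, is 10 times the −log10 q and was not used.

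The 10 members and the wider lists were chosen with earlier results of these data known. Counts were tested with edgeR 4.0.16 (R 4.3.3, limma 3.58.1) after filterByExpr by group and TMM scaling, with quasi-likelihood fits of the 2 groups of each comparison and Benjamini-Hochberg adjustment over all genes or peaks tested. SE was derived from the log2 fold change and the F statistic. DESeq2 1.42.0 was the other tool. Log2 CPM used a prior count of 2. The members were always named. Of each wider list, in each comparison, up to 3 called genes per direction with the largest log2 fold changes and a mean of at least 1 CPM were named, and for Klf10, Klf11, Smad7 and Tgfbr3 the 3 most correlated genes. Tables were made with python 3.11.15, pandas 2.3.3 and numpy 2.4.6, and figures with matplotlib 3.10.9. Genes were placed by GENCODE M21, while the authors counted with M22. The fit was tested on simulated data, and the outcome of that step is not given here. The result of 1 marker list is not reported.

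Library totals as deposited were kept after counts had been seen. The first fit used totals over the genes past the filter and called 48 genes in YCR against YAL and 12 in the difference between the ages, where the totals as deposited gave 68 and 9. Further settings tried on YCR against YAL called 58, 48, 69, 69 and 61 genes. The deposited totals were chosen to follow an earlier account of these data.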

Additional observations from a re-analysis of the deposited data

Results flagged for a closer look

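A gap test for 1 value far from the other 3 was run on 82 groups of 4 libraries, and 3 values were picked out. By chance alone such a test picks about 1 in 20 groups. Tgfb1 in GFP_Kdr replicate 2 was 70.08 CPM, far below the other 3 libraries at 106.8 to 109.5 CPM. Smad7 in YCRRF replicate 1 was 39.87 CPM, far above the other 3 at 20.26 to 21.68 CPM. Klf10 in YCRRF replicate 4, the library with the lowest total count, was 297.4 CPM, far above the other 3 at 220.7 to 224.1 CPM. Whether these values come from the cells or from the handling was not tested.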

How the results depend on the processing

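For named wider genes 167 values kept the call with 1 library left out and 37 lost it, and 155 kept it under the other alternatives and 34 lost it. Member RNA values have no test and were compared by size and direction.

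Leaving out 1 library gave 1054 to 1653 genes in OCR against OAL (1511), 6 to 27 in YCR against YAL (68), 352 to 2755 in OCRRF against OCR (1110), 0 to 10 in YCRRF against YCR (2) and 1475 to 5357 in OAL against YAL (3486). It gave 0 to 12 in the Kdr knockdown (3), 0 to 1 in the double knockdown (1) and 98 to 368 ATAC-seq peaks (273), with 0 to 1 within 50 kb of members. Wider genes called ran from 1 to 8 in OCRRF against OCR and from 7 to 17 in OAL against YAL. The cause was not tested, and each such fit has fewer libraries.

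With 1 library left out, directions turned for Smad3 (−0.11 to 0.0739) and Klf10 (−0.16 to 0.20) in the Kdr knockdown and for Smad2 (−0.0294 to 0.0432), Smad3 (−0.0561 to 0.0228) and Smad7 (−0.22 to 0.0436) in the double knockdown. They also turned for members of the diet and age comparisons: Tgfb1 in OCR against OAL (−0.0092 to 0.13), Tgfbr3 in YCR against YAL (−0.0031 to 0.29), Tgfbr2 in OCRRF against OCR (−0.12 to 0.0586), Tgfbr1 (−0.0139 to 0.54), Tgfbr2 (−0.33 to 0.13), Smad3 (−0.0245 to 0.12) and Smad7 (−0.18 to 0.27) in YCRRF against YCR, and Tgfbr1 (−0.0778 to 0.0408), Tgfbr3 (−0.12 to 0.17), Smad2 (−0.13 to 0.0929) and Klf10 (−0.0779 to 0.0381) in OAL against YAL. Directions turned for the promoter peaks of Smad2 at 76240735 (−0.0601 to 0.0286) and 76259316 (−0.0509 to 0.0303), Smad3 at 63757788 (−0.13 to 0.35), Smad4 at 73702867 (−0.0451 to 0.0616) and Klf11 at 24650754 (−0.0142 to 0.14).

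With 1 fit of the 6 diet groups, 212 genes and 1 wider gene were called in OCR against OAL, 201 and 1 in YCR against YAL, 64 and 0 in OCRRF against OCR, and 538 and 4 in YCRRF against YCR. DESeq2 called 527 and 1 in YCR against YAL, 2391 in OCRRF against OCR, 378 and 3 in YCRRF against YCR, 7955 and 21 in OAL against YAL, 261 and 4 in the Kdr knockdown, 332 and 2 in the double knockdown, 239 in the difference between the ages and 172 peaks. Without a low count filter 368 and 3 were called in YCR against YAL, 275 and 2 in YCRRF against YCR, 6671 in OAL against YAL, 82 and 19 in the knockdowns and 23 in the difference between the ages. RLE and TMM from genes of at least 5 CPM each called 1 gene in YCRRF against YCR. The cause was not tested.

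Deviations of libraries with the same replicate number correlated at −0.233 to 0.151. They were taken from means of few libraries, so they cannot show whether the numbers pair samples, and the labels do not say. A replicate block gave 7 genes in YCR against YAL, 2889 and 10 wider genes in OCRRF against OCR, 0 in YCRRF against YCR, 1651 in OAL against YAL, 27 in the Kdr knockdown, 0 in the double knockdown and 778 peaks, and turned the Smad2 peak at 76240735 to 0.0027.

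In the double knockdown 7 genes were called with hairpin 1 libraries only and 0 with hairpin 2 only. Tgfb1 turned to 0.0155 with hairpin 1 only, and Smad2 to 0.0637 and Smad3 to 0.0017 with hairpin 2 only. Klf10 in the Kdr knockdown turned to −0.0048 with TMM from genes of at least 5 CPM. Within 10 kb of a start site, PU.1 peaks near members numbered 2 and 2 in OAL, 3 and 3 in OCR, and 1 and 1 in OCRRF. The knockdown controls, OCRRF and the ChIP-seq groups hold 2 libraries each. Where a group was left with 1 library, it is assumed to vary like the other group.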
